A study of Danio rerio with 12 samples.

Results

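The pronephros is the first working kidney of the zebrafish larva, and 8 of its genes were followed here by their symbols in the deposited count table: nphs1, wt1a, wt1b, pax2a, pax8, slc20a1a, hnf1ba and hnf1bb. All 8 were found, each on 1 row, among 31465 genes, and all 8 were among the 21068 genes with enough counts to be tested. Total RNA of zebrafish embryos was sequenced from the AB strain (wild type) and from a strain given only as Mycn mutant. Both were taken at the ages of 48 and 72 hours post fertilization (hpf), which makes 4 groups of 3 libraries. The sources used here give neither the mutant allele nor whether a library held a single embryo, a pool or a separate clutch, so p-values measure only the spread between these libraries, which may be technical. The sampled material is labelled as embryonic cells, and genes of kidney, brain, ear, thyroid and gut were all detected in it.

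In the pronephros, blood is filtered by podocytes, whose foot processes are bridged by a slit diaphragm, and the filtrate is then reclaimed by a proximal and a distal tubule on each side. The products of pax2a, pax8, hnf1ba and hnf1bb are transcription factors that set up the tubule, and Wt1a and Wt1b are zinc finger factors of the podocyte. Filtration begins around the earlier age sampled here. Most of these genes are not kidney-specific: pax2a is also used in the optic stalk, the midbrain-hindbrain boundary, the ear and the thyroid, pax8 in the ear and thyroid, hnf1ba in the gut, liver, pancreas and hindbrain, and the wt1 genes in the epicardium. In RNA of whole embryos, fewer cells of a type and less RNA per cell cannot be told apart, and neither can the kidney and these other sites.

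Library totals lay between 14793715 and 19732340 counts, so that 1 count was worth 0.0505 to 0.0719 CPM, the share of the library total that a gene's counts make up, scaled by TMM factors. The 8 genes were low to moderate in these libraries, with 15 counts in the lowest library of hnf1bb and 829 in the highest of pax2a. Levels are in CPM with no correction for gene length, so they were compared between groups and not between genes. mycn was measured as a check of the labels and had more counts in the libraries labelled mutant, with 60.8 to 90.1 CPM in wild type against 203 to 251 CPM at 48 hpf and at 75.6 to 79.8 against 141 to 158 CPM at 72 hpf. Since a loss of transcript would have gone the other way and the allele is not given, these libraries are called mutant-labelled below, and every direction between genotypes rests on the labels.

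The comparison of ages asks how the kidney genes developed in each genotype. All 8 genes changed between 48 and 72 hpf in wild-type and in mutant-labelled libraries, and in the same direction in both: the 6 genes pax2a, pax8, hnf1ba, hnf1bb, nphs1 and slc20a1a rose, and wt1a and wt1b fell (edgeR quasi-likelihood test, Benjamini-Hochberg adjusted p under 0.05 over all tested genes). The libraries of the ages did not overlap for any of the 8 in either genotype. Such changes were common at these ages, since 70.8% of all tested genes passed in wild-type libraries (35.4% higher and 35.4% lower) and 70.2% in mutant-labelled ones (35.7% higher and 34.4% lower). The share without overlap was 73.3% in wild-type (37.2% higher, 36.1% lower) and 74.2% in mutant-labelled libraries (37.6% higher, 36.6% lower). The count of 8 therefore stands close to the background, and the sizes and directions are what follows.

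**Figure D1:**
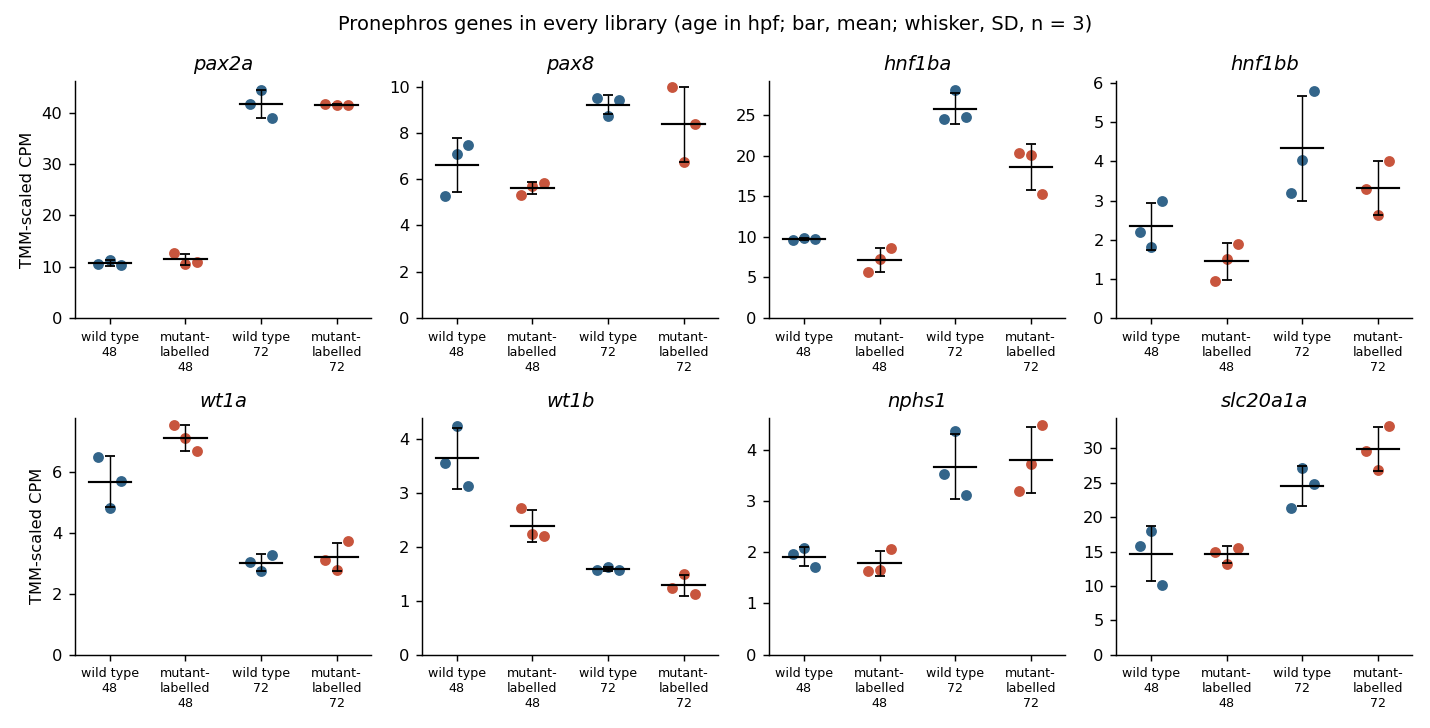
Levels of the 8 pronephros genes in each of the 12 libraries, in TMM-scaled CPM on the vertical axis, by genotype and age. Each point is a library, the horizontal bar the mean of 3 and the whisker the SD. pax2a stands at 10.3 to 12.7 CPM at 48 hpf and 39.0 to 44.5 CPM at 72 hpf in both genotypes, while hnf1ba is lower in every mutant-labelled library of an age than in any wild-type one.

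Among the transcription factors of the tubule, pax2a (ENSDARG00000028148) rose most. It stood at 10.5, 11.3 and 10.3 CPM in the wild-type libraries at 48 hpf and at 41.8, 44.5 and 39.0 CPM at 72 hpf. In the mutant-labelled libraries it stood at 12.7, 10.6 and 11 CPM and then at 41.7, 41.6 and 41.5 CPM. The 72 hpf libraries were thus all above the 48 hpf ones, with the genotypes interleaved at each age. The rise was 3.90-fold in wild-type (log2 fold change 1.96, SE 0.10, adjusted p = 8.04e-11) and 3.63-fold in mutant-labelled libraries (log2 fold change 1.86, SE 0.10, adjusted p = 1.66e-10).

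pax8 (ENSDARG00000015879), the paired box relative of pax2a, rose much less. Its wild-type libraries held 5.26, 7.09 and 7.48 CPM at 48 hpf and 9.49, 8.74 and 9.42 CPM at 72 hpf. The mutant-labelled ones held 5.31, 5.68 and 5.84 CPM and then 10, 6.76 and 8.38 CPM. The genotypes overlapped at both ages. The log2 fold change with age was 0.48 (SE 0.17, adjusted p = 0.0185) in wild-type and 0.58 (SE 0.17, adjusted p = 0.00718) in mutant-labelled libraries. The call was lost without wild-type 48 hpf replicate 1 (log2 fold change 0.34, adjusted p = 0.0966), wild-type 72 hpf replicate 1 (adjusted p = 0.0516) or mutant-labelled 72 hpf replicate 1 (adjusted p = 0.0513).

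hnf1ba (ENSDARG00000006615) and hnf1bb (ENSDARG00000022295) are a pair of duplicate homeobox genes of the zebrafish that act in the tubule. hnf1ba held 9.61, 9.83 and 9.72 CPM in wild type at 48 hpf and 24.6, 28.1 and 24.8 CPM at 72 hpf. In the mutant-labelled libraries it held 5.63, 7.26 and 8.58 CPM and then 20.3, 20.1 and 15.3 CPM. At each age every mutant-labelled library lay below every wild-type library. With age it rose 2.65-fold in wild-type (log2 fold change 1.41, SE 0.15, adjusted p = 2.91e-07) and 2.59-fold in mutant-labelled libraries (log2 fold change 1.38, SE 0.15, adjusted p = 6.52e-07).

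hnf1bb was counted at a lower level, with 2.20, 1.82 and 3 CPM in wild type at 48 hpf and 3.18, 4.03 and 5.81 CPM at 72 hpf. The mutant-labelled libraries held 0.949, 1.51 and 1.89 CPM and then 3.30, 2.63 and 4.01 CPM. The lowest wild-type library lay below the highest mutant-labelled one at both ages. hnf1bb rose with age by 0.88 on the log2 scale in wild-type (SE 0.29, adjusted p = 0.0126) and by 1.19 in mutant-labelled libraries (SE 0.32, adjusted p = 0.0033). Without wild-type 72 hpf replicate 3, which held the highest value, the first of these was not called (log2 fold change 0.61, adjusted p = 0.0945).

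Of the genes of the podocyte, the pair of wt1 factors fell while nphs1 rose. wt1a (ENSDARG00000031420), which in zebrafish is needed for podocytes to form, held 6.49, 4.82 and 5.71 CPM in wild type at 48 hpf and 3.03, 2.74 and 3.28 CPM at 72 hpf. The mutant-labelled libraries held 7.53, 7.12 and 6.69 CPM and then 3.1, 2.79 and 3.72 CPM, above all wild-type libraries at 48 hpf and overlapping them at 72 hpf. The fall with age was 1.88-fold in wild-type (log2 fold change -0.91, SE 0.18, adjusted p = 0.000315) and 2.23-fold in mutant-labelled libraries (log2 fold change -1.15, SE 0.18, adjusted p = 2.75e-05).

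wt1b (ENSDARG00000007990), which also acts in the zebrafish glomerulus, held 3.55, 4.23 and 3.12 CPM in wild type at 48 hpf and 1.56, 1.62 and 1.56 CPM at 72 hpf. In the mutant-labelled libraries it held 2.72, 2.23 and 2.19 CPM and then 1.24, 1.5 and 1.12 CPM. These lay below all wild-type libraries of the same age. With age wt1b fell by 1.19 on the log2 scale in wild-type (SE 0.23, adjusted p = 0.000234) and by 0.88 in mutant-labelled libraries (SE 0.25, adjusted p = 0.00458).

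nphs1 (ENSDARG00000060758) encodes nephrin, the adhesion protein of the slit diaphragm. It held 1.96, 2.08 and 1.71 CPM in wild type at 48 hpf and 3.53, 4.37 and 3.12 CPM at 72 hpf, and 1.64, 1.65 and 2.07 CPM and then 3.2, 3.72 and 4.48 CPM in the mutant-labelled libraries. The genotypes overlapped at both ages. The rise was 1.91-fold in wild-type (log2 fold change 0.94, SE 0.23, adjusted p = 0.00168) and 2.11-fold in mutant-labelled libraries (log2 fold change 1.08, SE 0.23, adjusted p = 0.000621).

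slc20a1a (ENSDARG00000020114), a sodium-phosphate carrier used as a marker of the proximal convoluted tubule, held 15.8, 18.0 and 10.2 CPM in wild type at 48 hpf and 21.4, 27.2 and 24.8 CPM at 72 hpf. The mutant-labelled libraries held 15, 13.2 and 15.5 CPM and then 29.6, 26.8 and 33.3 CPM. Mutant-labelled replicates 1 and 3 at 72 hpf stood above all wild-type libraries, and replicate 2 stood within them. slc20a1a rose by 0.74 on the log2 scale in wild-type (SE 0.17, adjusted p = 0.00082) and by 1.04 in mutant-labelled libraries (SE 0.17, adjusted p = 3.54e-05).

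**Figure D2:**
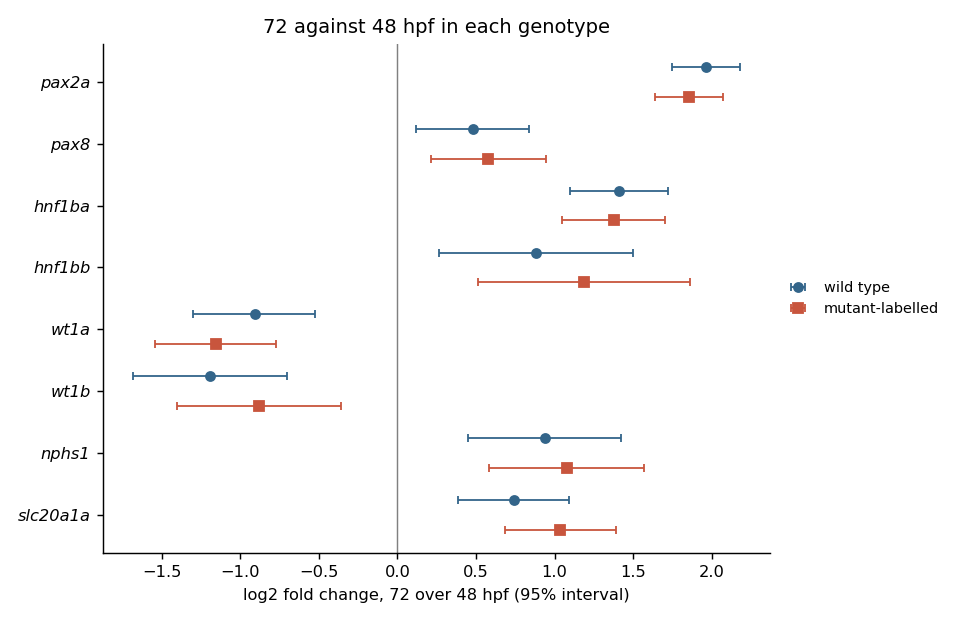
Change of each gene from 48 to 72 hpf as log2 fold change on the horizontal axis, with the 95% interval of the edgeR model as bars, in wild-type and in mutant-labelled libraries. wt1a and wt1b lie left of 0 and the other 6 genes right of it, with pax2a farthest at 1.96 and 1.86.

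Over the 8 genes the median log2 fold change with age was 0.81 in wild-type and 1.06 in mutant-labelled libraries, beside -0.015 and -0.0037 over all tested genes. A difference between the genotypes in the change with age was not detected: in edgeR 0 of 8 passed the test of that difference, 0 had an unadjusted p under 0.05 (10.4% of all tested genes), and 0 passed in DESeq2 or limma-voom. These fits called 0.47%, 1.08% and 0.441% of all tested genes. The estimates of that difference had SEs of 0.14 to 0.43 on the log2 scale. Scaling by library totals alone, without TMM factors, moved the median of all genes to 0.41 in wild-type and 0.32 in mutant-labelled libraries. Under it each of the 8 kept its direction in both genotypes, while the fall of wt1b in mutant-labelled libraries was no longer called (log2 fold change -0.56, adjusted p = 0.0556).

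Measured by the root-mean-square difference of log2 CPM over the 12 libraries after centring each gene, nphs1 and slc20a1a had the most similar profiles among the 8, with a difference of 0.20. The wt1 pair differed by 0.42 and hnf1ba and hnf1bb by 0.38, and the widest differences were those of wt1a and of wt1b from pax2a, at 1.47 each. Outside the set, each gene was compared with 17247 others that had a symbol and an average log2 CPM of at least 1. The closest to pax2a were cry1a (0.069), ndrg3a and si:ch73-389b16.2, and to pax8 zgc:123305 (0.12), akap9 and foxa3. The closest to hnf1ba were PDE3B (0.17), ndrg1a and nfkbiaa, and to hnf1bb lbh (0.25), tmem176l.3b and CABZ01039859.1. wt1a was closest to eif4eb (0.095), atp5mc1 and tmed3, and wt1b to prdx3 (0.12) and the ribosomal protein genes rpl12 and rps7. nphs1 was closest to nck2a (0.13), khdc4 and enox2, and slc20a1a to ppp3cca (0.14), dhtkd1 and n4bp1. The medians over all genes compared were 0.55 to 1.01. The named genes are the 3 smallest of 17247 differences, so they lie below these medians by choice. The change with age dominates this measure.

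The comparison of genotypes asks whether kidney genes differed in the mutant. hnf1ba, the tubule factor, was lower in the mutant-labelled libraries at both ages by a similar amount. hnf1bb, wt1b and pax8 had negative estimates at both ages, with log2 fold changes of -0.24 and -0.14 for pax8, and wt1a had positive ones. pax2a and nphs1 had estimates close to 0. At 48 hpf, 0 of 8 passed in edgeR, against 3.04% of all tested genes, and 2, wt1b and hnf1ba, had an unadjusted p under 0.05, as 17.3% of all tested genes did. At 72 hpf 0 of 8 passed, against 0.555%, and 1, hnf1ba, had an unadjusted p under 0.05, as 7.75% of all tested genes did. These counts of 8 stand near the background. DESeq2 and limma-voom also called 0 of 8 at both ages, against 4.44% and 2.83% of all genes at 48 hpf and 1.14% and 0.926% at 72 hpf. The libraries did not overlap for 3 of 8 genes at 48 hpf, where wt1a was higher and wt1b and hnf1ba were lower, and for 2 of 8 at 72 hpf, where wt1b and hnf1ba were lower. Over all tested genes 16.8% did not overlap at 48 hpf (7.69% higher, 9.08% lower) and 20.1% at 72 hpf (9.14% lower). The median log2 fold change of the 8 was -0.16 at 48 hpf and -0.071 at 72 hpf, beside -0.0026 and 0.013 over all genes.

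**Figure D3:**
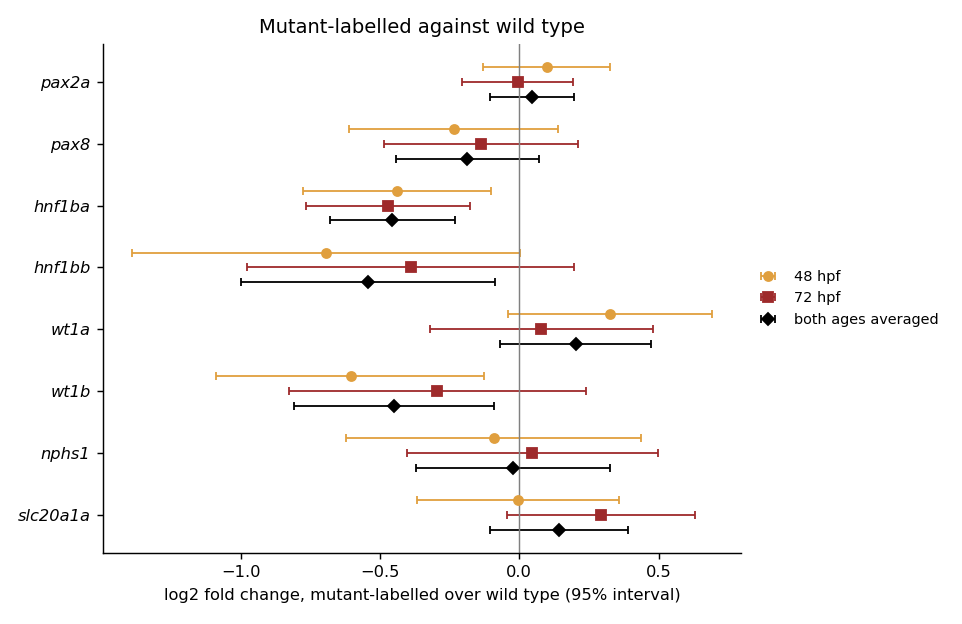
Difference of mutant-labelled from wild-type libraries as log2 fold change on the horizontal axis, with the 95% interval of the edgeR model, at 48 hpf, at 72 hpf and averaged over both ages. The hnf1ba estimates lie at -0.44, -0.47 and -0.46 with all 3 intervals left of 0, and those of pax2a lie between -0.0058 and 0.098. The intervals of wt1b at 48 hpf and averaged and of hnf1bb averaged also lie left of 0. Intervals are not adjusted over the tested genes, and only the averaged hnf1ba estimate passed.

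For hnf1ba the wild-type mean at 48 hpf was 9.72 ± 0.11 CPM, beside 7.16 ± 1.48 CPM in the mutant-labelled ones (SD, n = 3 each), and the log2 fold change of -0.44 (SE 0.16, edgeR adjusted p = 0.152) did not pass. The means at 72 hpf were 25.8 ± 1.96 and 18.6 ± 2.84 CPM, and the estimate of -0.47 (SE 0.14, edgeR adjusted p = 0.233) did not pass either. The 2 estimates differed by 0.033 on the log2 scale, within an SE of 0.21. Averaged over both ages hnf1ba fell 1.37-fold and was called (log2 fold change -0.46, 95% interval -0.68 to -0.23, edgeR adjusted p = 0.035), lower in 3 of 3 mutant-labelled libraries at each age. It was the only 1 of the 8 called in that comparison, in which 2.07% of all tested genes passed (0.655% higher, 1.41% lower). DESeq2 and limma-voom called it as well (adjusted p = 0.00702 and 0.0373, in fits that called 3.5% and 1.95% of all genes), and library totals alone left it at the edge (adjusted p = 0.0506).

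The averaged call of hnf1ba was narrow. It held when wild-type 48 hpf replicate 2, wild-type 48 hpf replicate 3 or mutant-labelled 48 hpf replicate 3 was left out (edgeR adjusted p = 0.0174 to 0.029) and was lost when any of the other 9 libraries was left out (adjusted p = 0.0516 to 0.109). Its log2 fold change stayed between -0.53 and -0.39 in these fits. When only the 6 libraries of 72 hpf were fitted, hnf1ba was called at that age too (log2 fold change -0.48, SE 0.105, edgeR adjusted p = 0.013), as the 1 called of the 8 genes in a fit that called 3.93% of all tested genes.

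hnf1ba is also a gene of the gut tube, so transcription factors of the endoderm were measured beside it, in a list that does not hold hnf1ba. Of 17 tested, 0 rose and 1 fell in the mutant-labelled libraries at 48 hpf, 0 rose and 3 fell at 72 hpf, and the median log2 fold changes were -0.13 and -0.35. Of all tested genes 2% were called lower at 48 hpf and 0.422% at 72 hpf. The list was chosen with earlier results of these data known, so its standing beside these shares is no independent support. The ones that fell were cdx1b, an intestinal homeobox factor, at both ages (log2 fold change -1.23, adjusted p = 0.00946, and -1.16, adjusted p = 0.00078), and at 72 hpf also its relative cdx1a (-1.30, adjusted p = 0.0116) and the epithelial factor elf3 (-0.64, adjusted p = 0.044). The calls at 72 hpf numbered 1 to 4 when a library was left out, in fits that called 24 to 195 of all genes. They numbered 5 in the fit of only the groups compared, which called 3.93% of all tested genes. cdx1b kept its call at 72 hpf in all 19 alternatives and lost that at 48 hpf in the fit of only the groups compared (adjusted p = 0.174). The call of cdx1a was lost without wild-type 72 hpf replicate 2 or 3 or any mutant-labelled 72 hpf library (adjusted p = 0.064 to 0.154). That of elf3 was lost without any 1 of the 6 libraries of 72 hpf or mutant-labelled 48 hpf replicate 2 (adjusted p = 0.0516 to 0.271). The summed level of the list ran from 185 to 198 CPM in wild-type and from 169 to 187 CPM in mutant-labelled libraries at 48 hpf, and from 252 to 267 and from 172 to 193 CPM at 72 hpf, with no member at 0. The part of endoderm in the hnf1ba values was not tested.

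The remaining genes did not pass between genotypes at either age or in the average. hnf1bb had an averaged log2 fold change of -0.54 (95% interval -0.999 to -0.0858, edgeR adjusted p = 0.227), and 15 to 108 counts stood behind each library. For pax8 the averaged value was -0.19 (interval -0.44 to 0.070, adjusted p = 0.511). The tightest estimate was that of pax2a, at 0.046 with an interval of -0.11 to 0.20 (adjusted p = 0.826), which leaves out changes as large as that estimated for hnf1ba. nphs1 stood at -0.023 with an interval of -0.37 to 0.32 (adjusted p = 0.968) and slc20a1a at 0.14 with an interval of -0.11 to 0.39 (adjusted p = 0.622). For slc20a1a the value at 48 hpf changed sign with the library left out, from -0.20 to 0.17, and none of these was called.

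The wt1 duplicates had estimates of opposite sign. Averaged over both ages the log2 fold change was 0.20 for wt1a (SE 0.13, edgeR adjusted p = 0.497) and -0.45 for wt1b (SE 0.17, adjusted p = 0.202), and neither passed. Their ratio within a library does not depend on how libraries are scaled, and it was computed after these values had been seen, so its test describes these libraries and is no independent support. The log2 ratio of wt1a to wt1b counts was 0.87, 0.19 and 0.87 in wild type and 1.47, 1.68 and 1.61 in the mutant-labelled libraries at 48 hpf. At 72 hpf it was 0.95, 0.76 and 1.07 against 1.32, 0.90 and 1.73. All mutant-labelled libraries lay above all wild-type ones at 48 hpf, while at 72 hpf the groups overlapped through mutant-labelled replicate 2. The difference was 0.94 at 48 hpf and 0.39 at 72 hpf, with a mean of 0.67. An exact two-sided permutation test of the genotype labels within age gave p = 0.015, or 0.03 adjusted over the 2 pairs compared, where 0.005 is the smallest possible.

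The other pair gave no such value. The log2 ratio of hnf1ba to hnf1bb was 2.12, 2.43 and 1.69 in wild type and 2.57, 2.27 and 2.19 in mutant-labelled libraries at 48 hpf. At 72 hpf it was 2.95, 2.80 and 2.09 against 2.62, 2.93 and 1.93, and the genotypes overlapped at both ages. The mean difference was 0.069 (exact permutation p = 0.795), and its sign turned when wild-type 48 hpf replicate 3, wild-type 72 hpf replicate 3 or mutant-labelled 72 hpf replicate 2 was left out (-0.029, -0.062 and -0.041). How the authors' counting treated reads that fit both members of a pair is not given in the sources used here.

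**Figure D4:**
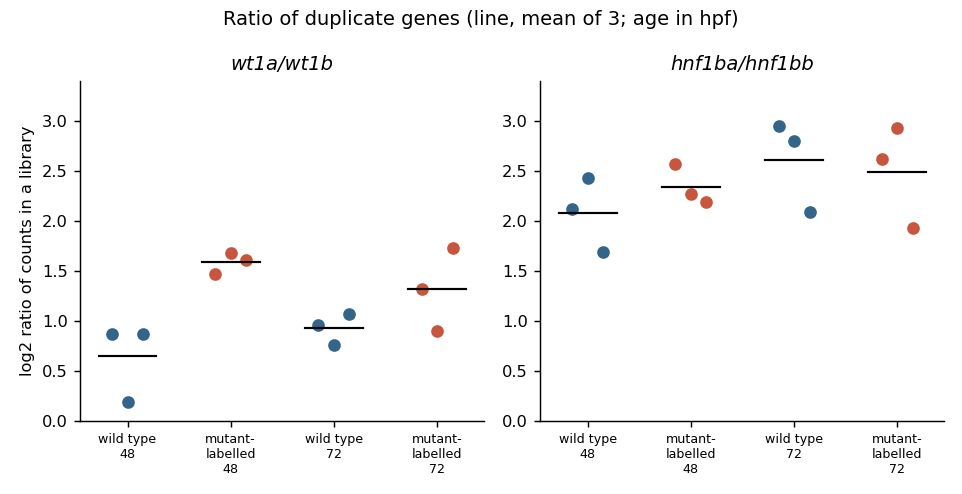
Log2 ratio of counts of wt1a to wt1b (left) and of hnf1ba to hnf1bb (right) in each library on the vertical axis, by genotype and age, with a line at the mean of 3 libraries. For wt1a to wt1b the mutant-labelled means of 1.59 and 1.32 stand above the wild-type means of 0.64 and 0.93, with overlap at 72 hpf.

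Because wt1a and wt1b are also expressed in the epicardium, the covering layer of the heart, that list was measured too. It holds both wt1 genes with tcf21, tbx18 and aldh1a2, and all 5 fell with age in both genotypes. So did 35.4% of all tested genes in wild-type and 34.4% in mutant-labelled libraries. In the genotype comparisons 0 of 5 passed in edgeR, DESeq2 or limma-voom at either age. At an unadjusted edgeR p under 0.05 there was 1 at 48 hpf, wt1b itself, and 0 at 72 hpf. Because the list holds both wt1 genes, it does not read the epicardium apart from them. Its summed level was 104 to 133 CPM in wild-type and 108 to 118 CPM in mutant-labelled libraries at 48 hpf, and 72.1 to 82.3 and 62.4 to 73.3 CPM at 72 hpf. Most of that sum was aldh1a2, with wild-type and mutant-labelled means of 98.8 and 87.9 CPM at 48 hpf and 67.6 and 57.5 CPM at 72 hpf. The sites that share pax2a and pax8 were also read between genotypes: 0 of 13 tested genes of the midbrain-hindbrain boundary and optic stalk, 0 of 6 of the thyroid and 0 of 12 of the ear at either age in edgeR. At an unadjusted p under 0.05 the counts were 2, 1 and 0 at 48 hpf, all higher. At 72 hpf they were 2, 0 and 3, with the first 2 lower and the 3 of the ear higher. Of all tested genes 3.04% and 0.555% were called at 48 and 72 hpf, and 17.3% and 7.75% had an unadjusted p under 0.05. DESeq2 and the scaling by library totals each called 1 gene of the midbrain-hindbrain boundary and optic stalk at 48 hpf. Without wild-type 48 hpf replicate 3 that list and the thyroid list had 1 call each. The smallest p values were those of vax1, a homeobox factor of the optic stalk (3.17 ± 0.622 CPM in wild type against 5.08 ± 1.34 at 48 hpf, adjusted p = 0.0688), the thyroid and forebrain factor nkx2.1 (3.98 ± 0.837 against 5.82 ± 1.05 at 48 hpf, adjusted p = 0.151) and, in the ear list, the matrix protein gene sparc (log2 fold change 0.28 at 72 hpf, adjusted p = 0.444). The share of these sites in the values of the 8 genes was not tested.

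The wider genes of the pronephros were read beside the 8 in lists grouped by segment, which RNA of whole embryos does not resolve. Most genes of the tubule lists rose with age. Of all tested genes 35.4% rose and 35.4% fell in wild-type libraries, and 35.7% rose and 34.4% fell in mutant-labelled ones. Of 21 proximal tubule genes 17 rose and 1 fell in wild-type libraries and 16 rose and 1 fell in mutant-labelled ones, with medians of 2.50 and 1.92 on the log2 scale. Among those with an average log2 CPM of at least 1, they include the sulfate carrier slc13a1, which rose 28-fold and 20.2-fold, the sodium-proton exchanger slc9a3.1 (20.1-fold and 24.1-fold), the scaffold gene pdzk1 (11.8-fold and 9.10-fold) and the bicarbonate carrier slc4a4a (7.32-fold and 9.86-fold). The exception was dab2, an adaptor of endocytosis also found outside the kidney, which fell from 46.1 ± 6.91 to 16.5 ± 0.687 CPM in wild type (SD, n = 3 each). slc20a1a is a member of this list, and with 1.67-fold and 2.05-fold its rise was below the list's median. All 3 genes of the SLC20 phosphate carriers rose in both genotypes. The part of sites outside the kidney, such as the gut, in the rises of these lists was not tested.

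Of the 20 tested genes of the distal tubule and duct, 15 rose and 3 fell in wild type and 16 rose and 3 fell in mutant-labelled libraries, with medians of 1.42 and 1.63. The shares over all tested genes were 35.4% higher and 35.4% lower in wild type, and 35.7% and 34.4% in mutant-labelled libraries. The salt carrier slc12a3 rose 23.1-fold and 13.2-fold, the sodium pump subunit atp1a1a.4 rose 22.7-fold and 14.7-fold, and the potassium channel kcnj1a.3 rose 10.3-fold and 16.1-fold. Several of these are also genes of ionocytes in the zebrafish skin, and the part of the skin was not tested. Transcription factors and signals of the pronephros, a list that holds pax2a, pax8, hnf1ba and hnf1bb, moved less: 13 of 24 rose and 4 fell in wild-type libraries, and 11 rose and 4 fell in mutant-labelled ones. Beside the 8 genes, lhx1a, an early factor of the kidney field, rose 3.13-fold and 3.32-fold, and irx3b, a factor of the distal segments, fell 3.71-fold and 4.52-fold. How much of these changes came from sites outside the kidney was not tested.

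Podocyte genes moved with age in both directions, as all tested genes did. Of the latter 35.4% rose and 35.4% fell in wild-type libraries, and 35.7% rose and 34.4% fell in mutant-labelled ones. Of 24 genes, each row counted as a gene, 5 rose and 9 fell in wild-type libraries and 8 rose and 9 fell in mutant-labelled ones. The medians were -0.028 and -0.024, beside -0.015 and -0.0037 over all genes. The symbol ptpro stands on more than 1 of these rows. In wild type its log2 fold change was -0.038 for ENSDARG00000100422, which was not called, and 0.86 for ENSDARG00000110470, which was. kirrel1b, a nephrin-like gene, rose 3.19-fold and 2.93-fold, as nphs1 did by a smaller amount. podxl, the sialoprotein of the podocyte surface, fell 2.36-fold in wild-type and 1.82-fold in mutant-labelled libraries, and arhgap24 fell 2.29-fold and 2.4-fold. Of 18 genes of the multiciliated cells, which lie between the carrier cells of the tubule and move fluid, 4 rose and 4 fell in wild type and 2 rose and 5 fell in mutant-labelled libraries. Among these, pkd2, a cation channel of cilia, fell 3.93-fold and 3.85-fold.

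Between genotypes few of these wider genes passed. At 48 hpf 1 of 24 podocyte genes fell in the mutant-labelled libraries and 0 rose, where 2% of all tested genes were called lower. At 72 hpf 0 passed, against 0.555% of all tested genes. The gene that fell was crb2b, a Crumbs polarity gene needed in zebrafish podocytes. It held 33, 31 and 28 counts in wild type and 9, 11 and 5 in mutant-labelled libraries (log2 fold change -1.78, SE 0.43, edgeR adjusted p = 0.0484). All 6 libraries of 72 hpf held 0 counts of it. It was kept by the low-count filter through the wild-type 48 hpf libraries alone, where it was highest. The direction of its call was therefore partly set by the filter. The call was held in 3 of 19 other fits, DESeq2, limma-voom and the one without wild-type 48 hpf replicate 3, and was lost in the others, with an adjusted p of up to 0.141. In edgeR 0 genes of the distal list, the multiciliated list or the list of factors and signals passed at either age, with 5, 2 and 3 at an unadjusted p under 0.05 at 48 hpf and 3, 0 and 1 at 72 hpf, where 17.3% and 7.75% of all genes were. DESeq2 called 1 distal gene at 72 hpf, where it called 1.14% of all genes. The edgeR fit of only the groups compared called 3 distal genes there and 1 of the factors, hnf1ba, beside 3.93% of all tested genes. Leaving out a library brought up to 1 call in the distal list at either age and in the list of factors at 48 hpf. The smallest p in the multiciliated list was that of cetn4, a centrin gene, at 24.6 ± 1.44 and 20.6 ± 0.359 CPM at 48 hpf (adjusted p = 0.199). In the distal list the smallest p at 48 hpf was that of bsnd, a chloride channel subunit, at 1.01 ± 0.183 and 0.306 ± 0.0533 CPM (adjusted p = 0.0554).

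Of the proximal tubule genes, 0 of 21 passed at 48 hpf and 2 fell at 72 hpf, where 0.422% of all tested genes were called lower. At that age the median was -0.13, and 7 genes had a negative estimate with an unadjusted p under 0.05, as did 4.08% of all tested genes. This list too was chosen with earlier results of these data known, so its standing beside these shares is no independent support. Both genes called lower belong to the machinery by which the proximal tubule takes up filtered protein, a machinery that in zebrafish is shared with lysosome-rich cells of the intestine. lrp2b, a megalin gene, held 86, 123 and 109 counts in wild type and 20, 10 and 12 in mutant-labelled libraries at 72 hpf. This was a log2 fold change of -2.91 (SE 0.45, edgeR adjusted p = 0.00695). amn, which anchors the receptor cubilin, held 3.89, 4.59 and 4.57 CPM against 1.60, 1.81 and 1.83 CPM, a log2 fold change of -1.32 (SE 0.23, edgeR adjusted p = 0.0116). Neither gene had overlapping libraries at 72 hpf, nor did 20.1% of all tested genes (11% higher, 9.14% lower). Uncalled genes of the list outside that machinery also lay lower without overlap. The carrier gene slc7a9 held 3.53 to 3.93 CPM in wild type against 1.24 to 1.76 CPM. For slc13a1 it was 9.64 to 12 against 4.48 to 8.05 CPM, and for pdzk1 27.9 to 31.7 against 20.2 to 22.5 CPM. They are named after their values were seen, and 8 of the 21 estimates were positive.

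Other genes of that machinery did not pass at 72 hpf. cubn stood at 16.0 ± 2.32 and 11.7 ± 1.04 CPM (edgeR adjusted p = 0.682), dab2 at 16.5 ± 0.687 and 12.7 ± 1.96 CPM (adjusted p = 0.389), and lrp2a, the megalin gene with the higher counts, at 60.9 ± 3.42 and 60.1 ± 2.50 CPM (adjusted p = 0.994; SD, n = 3 each). The libraries of cubn (13.3 to 17.5 against 10.5 to 12.3 CPM) and dab2 (15.7 to 17.1 against 10.5 to 14 CPM) were lower without overlap in the mutant-labelled group. So were those of 9.14% of all tested genes, while those of lrp2a overlapped. lrp2a, cubn and dab2 are named after their values were seen. The call of lrp2b was lost without wild-type 72 hpf replicate 2 (adjusted p = 0.0919) or mutant-labelled replicate 2 or 3 (adjusted p = 0.0693 and 0.0761), and that of amn without any 1 of the 6 libraries of 72 hpf (adjusted p = 0.053 to 0.119). The endoderm factors were lower in the same libraries, as given above, and their part in the values of lrp2b and amn was not tested. slc20a1a, the proximal tubule gene among the 8, went the other way by estimate, at 24.5 ± 2.90 CPM in wild type against 29.9 ± 3.26 (adjusted p = 0.752 for a log2 fold change of 0.29, SE 0.16).

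**Figure D5:**
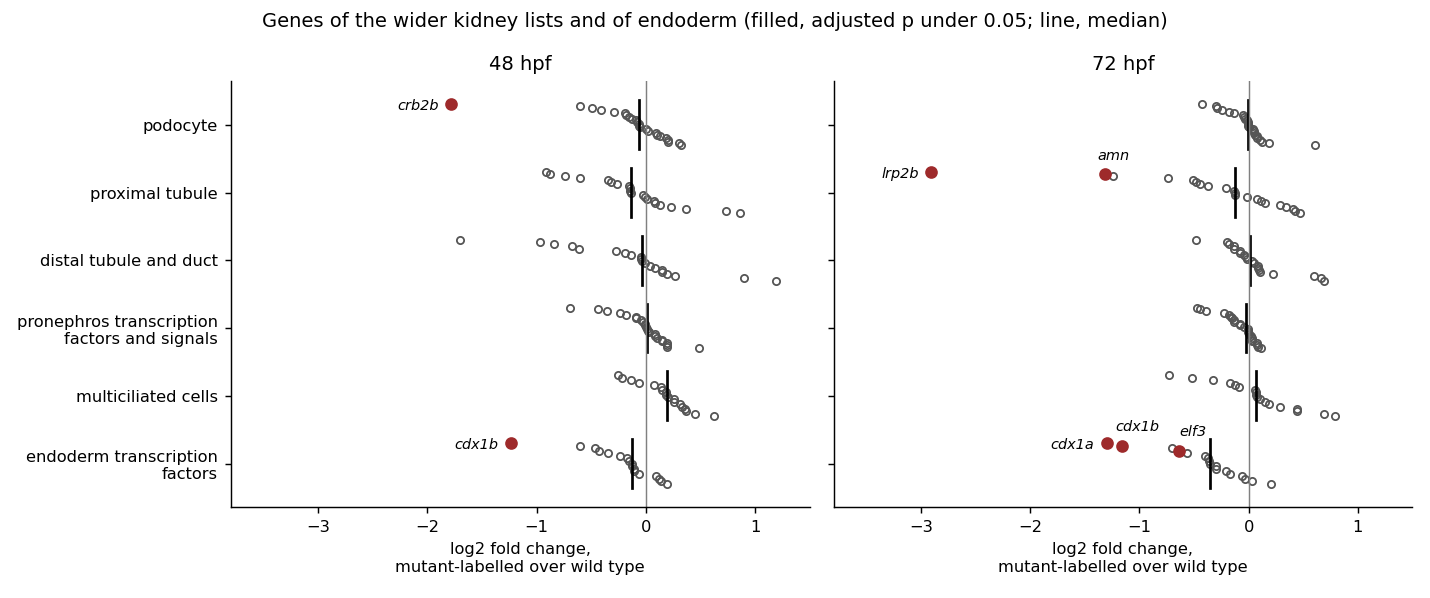
Log2 fold change of mutant-labelled over wild-type libraries on the horizontal axis for each tested gene of 5 kidney lists and of the endoderm list, at 48 hpf (left) and 72 hpf (right). Each point is a gene, filled where the edgeR adjusted p was under 0.05, and the line is the list's median. Called genes are crb2b and cdx1b at 48 hpf and lrp2b, amn, cdx1a, cdx1b and elf3 at 72 hpf.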

How the data were processed

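RNA of zebrafish embryos was sequenced on an Illumina platform from TRIzol total RNA, per the labels' protocols. The values are whole-number counts per gene that the authors deposited for 12 libraries. Per the submitters' processing notes, the tools were STAR, featureCounts and DESeq2 and the build was GRCz11, without versions or roles. The sources used here give no annotation release or strand setting, so reads of overlapping and antisense genes cannot be told apart. The 12 pairs of libraries within groups differed by 4.14 to 49.7 in chi-square per degree of freedom, so none was counted as a repeat. At 48 hpf the pairs lay at 21.8 to 49.7 in wild-type and 7.37 to 17 in mutant-labelled libraries. At 72 hpf they lay at 4.14 to 6.97 and 6.85 to 8.21. The main fit shares 1 estimate of the spread per gene over all groups. Its calls and missing calls at each age therefore rest on the spread of both ages.

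The counts were tested with edgeR 4.0.16 in R 4.3.3 by quasi-likelihood, with TMM scaling, 1 coefficient for each of the 4 groups over all 12 libraries, a low-count filter (filterByExpr, minimum count 10) and Benjamini-Hochberg adjustment over the 21068 genes kept, at 0.05. Intervals are 95%, come from the model and are for each gene alone, with no adjustment over the tested genes. Alternatives were DESeq2 1.42.0, limma-voom (limma 3.58.1), other scalings, no filter, only the groups compared, a replicate block and leaving out each library. The fit was also run on simulated data with the same spread per gene in all groups. The libraries differed in spread between groups, so that run cannot show how the fit behaves on them. The 8 genes and all lists were chosen with earlier results of these data known. All 8 are described. From each other list, up to 4 called genes of smallest p are named, or the smallest p where none was called, and for age up to 4 called genes of largest change with an average log2 CPM of at least 1.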

Additional observations from a re-analysis of the deposited data

How the results depend on the processing

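The count of pronephros genes called between genotypes was 0 at 48 hpf under all 19 alternatives, and at 72 hpf it was 0 except in the fit of only the groups compared, which called 1, hnf1ba. Averaged over both ages it was 1, and became 0 with library totals alone and with the replicate block (hnf1ba adjusted p = 0.0506 and 0.0619), and lay between 0 and 1 when each library was left out. With age, 7 to 8 of 8 were called in each genotype. The main fit called 70.8% of all tested genes with age in wild-type and 70.2% in mutant-labelled libraries. Over all genes the calls at 72 hpf numbered 117, against 793 with only the groups compared, 248 in DESeq2, 195 in limma-voom and 74 with the block. At 48 hpf they numbered 641, against 74 with only the groups compared and 1016 in DESeq2. Averaged over both ages they numbered 436, against 745 in DESeq2, and for the difference between ages 99, against 253 in DESeq2, 175 with no filter and 59 with the block. Proximal tubule genes called at 72 hpf numbered 2, against 6 with only the groups compared, where 3.93% of all tested genes were called. They numbered 0 to 3 when a library was left out. Leaving out a library moved the calls over all genes to between 222 and 1133 at 48 hpf, 24 and 195 at 72 hpf, 170 and 780 averaged and 23 and 276 for the difference. The cause of these shifts was not tested.

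Same-numbered libraries did not deviate together (correlations of -0.243 to 0.0336 within an age, 0 of 6 over 0.1). Of 12 libraries 2 correlated best with their own number, so these values show no pairing by replicate number. Of the 12 pairs with different numbers across genotypes within an age, 3 lay over 0.1, up to 0.239. With 3 libraries per group, these correlations cannot decide whether libraries shared a clutch or a batch. The genes with the fewest counts, hnf1bb (15 to 108 per library), wt1b (19 to 65) and nphs1 (23 to 78), had SEs of 0.212 to 0.329 on the log2 scale between genotypes at an age, against 0.0933 and 0.108 for pax2a.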
